A study of Mus musculus with 12 samples.

Results

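Dentate gyrus transcripts of mice that lack follistatin (Fst) and carry an AAV9 vector for green fluorescent protein were compared with those of untreated Fst knockouts. The comparison took 6 of the 12 libraries of the series: 3 of knockout mice given AAV9-CB::GFP (called GFP vector M1, M2 and F) and 3 of knockout mice without vector (KO M1, F1 and M2). All 6 share the knockout and the C57BL/6 strain, so what differs is the vector, its cargo and whatever delivery involved. The vector libraries and the untreated libraries were also deposited in separate count tables, which were joined by gene ID. Vector and table therefore cannot be told apart in any value given here, since no untreated library stands in the vector table. No group is labelled as sham-injected. Age, dose, interval after injection, the knockout allele and the meaning of CB are not stated in the labels, and the design text does not settle whether a library holds RNA from 1 mouse or from a pool. P-values then measure the spread between libraries, which may be technical. Titles and descriptions give opposite sexes for KO F1 and KO M2. Xist, expressed from the inactive X chromosome, was at 1520 CPM (counts scaled to the library total) in KO F1 and 0.406 CPM in KO M2, which matches the titles.

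Adeno-associated virus serotype 9 enters neurons and astrocytes of the brain, and its single-stranded DNA genome and capsid can be sensed by innate immune receptors. Interferon released in response induces antiviral genes and the class I antigen presentation machinery. Astrocytes that react to injury or inflammation raise intermediate filaments such as Gfap and Vim, and microglia raise lysosomal and complement genes. The dentate gyrus is dominated by granule cells, glutamatergic neurons whose scaffolds, channels and release machinery make up much of its RNA.

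Depth ran from 8081824 to 10481922 counts over the 6 libraries, 20915 to 22233 genes had a count in a library, and 3 counts equal 0.286 to 0.371 CPM. Fst had 2, 4 and 2 counts in the KO libraries and 0, 1 and 0 in the GFP vector libraries, against 33 to 51 in untreated wild type. The granule cell transcription factor Prox1 was at 324 to 457 CPM in all 6. Mitochondrial ribosomal RNA made up 0.658% of KO M2 and 0.596% of GFP vector M2, but 0.0202% or less of the other 4. GFP vector F stood apart. Over 10007 genes its root-mean-square log2 distance to the KO libraries was 0.534 to 0.580, against 0.308 to 0.406 for GFP vector M1 and M2 and 0.220 to 0.272 among the KO libraries. Results are therefore given with and without it. GFP vector F is also the only female library of its group by title and by Xist (1210 CPM, beside 0.495 and 0 CPM in M1 and M2). Values without it thus compare males alone with KO libraries of both sexes.

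Of 14927 genes tested with edgeR's quasi-likelihood test, 279 passed an adjusted p of 0.05 (1.87%), with 129 higher (0.864%) and 150 lower (1.0%) in the GFP vector libraries. Scaled by library totals, the split was 211 higher and 152 lower, so the share of higher calls moved from 46.2% to 58.1%, while the median log2 change of all genes moved only from 0.00661 to 0.0294. With the replicate name as a block the count was 33 (0.221%; 20 higher, 0.134%, and 13 lower, 0.0871%), and 27 of the 279 were among them. DESeq2 called 940 (6.30%), 501 higher (3.36%) and 439 lower (2.94%). Without KO M1, KO F1, KO M2 or GFP vector M2, 2 genes passed in each case, Shank3 (lower) and Gm8730 (higher). Without GFP vector M1 the count was 1937 (12.6%; 6.51% higher and 6.11% lower), and without GFP vector F it was 955 (6.29%; 3.12% higher and 3.18% lower), of which 278 were among the 279.

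Immune genes were mostly higher in the GFP vector libraries. Of 246 genes in the immune lists 160 passed the filter on low counts. In every list, a gene passes when either group alone reaches the level. Genes low in the KO libraries can therefore enter through the GFP vector libraries. Among the 160 tested, 9 were called higher (5.62%, beside 0.864% of all genes) and 0 lower. Of the 9, Spp1, H2-Ab1 and Igha passed the filter only through the GFP vector libraries. The groups did not overlap for 81 higher (50.6%, beside 16.5%) and 5 lower (3.12%, beside 13.1%). The median log2 change was 0.56, and 0.32 without GFP vector F. With the replicate block 4 members were called (all genes 0.221%), of which 2 were among the 9. Without GFP vector F 29 were higher and 2 lower (all genes 3.12% and 3.18%), and without GFP vector M1 53 were higher and 6 lower (all genes 6.51% and 6.11%). In bulk RNA, more cells of a type and more RNA per cell cannot be told apart.

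Interferon response genes had the same sign throughout. All 36 tested members of 47 listed had a positive log2 change, on TMM scaling, on library totals and with offsets for transcript length and GC content. The filter favours this sign among low genes, since members such as Ddx60 entered only through the GFP vector libraries. The untested members are not counted. The median was 1.46, and 0.66 without GFP vector F. None passed edgeR or limma-voom, 22 had an unadjusted p under 0.05, and DESeq2 called 14. The groups did not overlap for 22 of them, all higher (61.1%, beside 16.5% of all genes). Relative to the KO mean, the median member stood at a log2 of 0.61 in GFP vector M1, 0.42 in M2 and 2.22 in F, and F was the highest GFP vector library for 35 of 36. Summed over the list, the level was 193 to 205 CPM in the KO libraries and 283, 279 and 771 CPM in GFP vector M1, M2 and F. Without GFP vector F, 9 members were called higher, beside 3.12% of all genes.

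Oasl2, an oligoadenylate synthetase-like gene, was at 1.504, 1.93 and 1.73 CPM in KO M1, F1 and M2 and at 8.41, 3.90 and 24.4 CPM in GFP vector M1, M2 and F. Every GFP vector library lay above every KO library, by 2.27 to 14.2 times the KO mean (log2 2.81 ± 0.74 SE, edgeR adjusted p = 0.106; 0.0165 without GFP vector F). Irf7, the transcription factor that amplifies type I interferon, was at 0.752, 1.499 and 1.22 CPM against 5.32, 3.12 and 20.2 CPM. The groups did not overlap, with an adjusted p of 0.115 in all 6 libraries and 0.0220 without GFP vector F (edgeR). Xaf1, an interferon-induced promoter of apoptosis, was at 1.504, 1.18 and 1.83 CPM against 3.46, 6.82 and 11.7 CPM. It missed the threshold narrowly, at a log2 change of 2.27 ± 0.46 and an edgeR adjusted p of 0.0501. Ifit3b, of the family that binds foreign RNA, was at 1.40, 0.964 and 2.24 CPM against 4.33, 5.94 and 13.5 CPM (log2 2.35 ± 0.51, edgeR adjusted p = 0.0621). Ifit3b again showed no overlap and its highest level in F. Isg15, the ubiquitin-like interferon product, was at 1.22 to 2.36 CPM in the KO libraries and at 3.34, 1.46 and 18.1 CPM, so GFP vector M2 lay within the KO range. Cxcl10, an interferon-induced chemokine, had 3, 2 and 1 counts in the KO libraries and 0, 9 and 188 in GFP vector M1, M2 and F. That signal came almost wholly from 1 library, and the gene did not pass the filter.

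The interferon list was chosen from genes known to respond to interferon. A high share of matches in their promoters is therefore no result of these libraries. The promoters were searched for the interferon-stimulated response element. Its core, 2 copies of GAAA with any 2 bases between them, was sought on both strands in the 250 bases before each RefSeq start (GRCm38.p6). It was present in 14 of the 29 interferon response genes with a promoter in the RefSeq table (48.3%), in 334 of 11001 tested genes (3.04%) and in 3.46% of all promoters. The shares were 17.6% of 17 class I presentation genes, 16.0% of 25 reactive astrocyte genes and 9.52% of 21 postsynaptic genes. A match describes the letters and is not a binding site. The 3 stretches below, 100 bases each and 5′ to 3′ on the gene's strand, hold 2 matches each, in capitals. They come from interferon response genes with a match, taken in order of edgeR p with a chromosome left out. They are chr19:34607724-34607823 (plus strand) of Ifit3b, chr8:61927987-61928086 (plus) of Ddx60 and chr8:71537548-71537647 (minus) of Bst2.
Ifit3b: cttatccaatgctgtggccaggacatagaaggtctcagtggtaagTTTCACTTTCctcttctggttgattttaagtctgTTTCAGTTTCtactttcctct
Ddx60: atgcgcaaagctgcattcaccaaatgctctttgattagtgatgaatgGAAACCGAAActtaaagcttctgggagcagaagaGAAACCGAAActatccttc
Bst2: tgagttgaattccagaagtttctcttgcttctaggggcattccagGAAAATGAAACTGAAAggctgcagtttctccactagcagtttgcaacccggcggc
In Ifit3b the matches lie on the opposite strand and so read as the reverse complement, and in Bst2 the 2 matches overlap. The match farthest from the start began 188 bases before it in Ifit3b, 53 in Ddx60 and 130 in Bst2. Ddx60, a helicase that assists RNA sensing, was at 0.322, 0.964 and 0.914 CPM in the KO libraries and 1.86, 1.95 and 5.53 CPM with the vector (edgeR adjusted p = 0.0959). Bst2, which tethers budding virions, was at 3.54, 2.36 and 2.13 CPM against 6.56, 5.65 and 22.7 CPM (edgeR adjusted p = 0.128; 0.0362 without GFP vector F). Both were higher in every GFP vector library than in any KO library.

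Class I antigen presentation genes were also highest in GFP vector F. Of 18 tested members 1 was called higher (5.56%, beside 0.864% of all genes), 15 were higher without overlap (83.3%, beside 16.5%) and 18 were positive (17 with length and GC offsets; 7593 of 14927 over all genes), with a median log2 change of 1.35, and 0.75 without GFP vector F. H2-D1, a classical class I heavy chain at chr17:35262730-35267499, was at 23.1, 26.1 and 24.4 CPM in the KO libraries and 50.1, 54.3 and 88.0 CPM in GFP vector M1, M2 and F. It rose by 1.37 ± 0.22 on the log2 scale (edgeR adjusted p = 0.0379; 0.0475 with the block), and GFP vector M1 and M2 were already at 2.04 and 2.21 times the KO mean. B2m, the light chain, was at 52.4, 47.3 and 47.2 CPM against 68.9, 78.4 and 111 CPM, again without overlap (edgeR adjusted p = 0.0595; 0.0103 without GFP vector F). Tap1, which loads peptides, stood at 1.83 to 2.36 CPM and at 4.95, 3.60 and 9.54 CPM (edgeR adjusted p = 0.0752). Class I genes are near-identical copies, and reads among them may have been split by the counting. In class II presentation 4 of 9 genes were tested, of which 2 were positive and 2 negative. H2-Ab1, a class II beta chain, had 4, 2 and 3 counts in the KO libraries, near the limit of detection, and was at 1.98, 1.17 and 2.96 CPM in GFP vector M1, M2 and F. It rose (edgeR adjusted p = 0.0472; 0.0764 with the block; 0.0629 with limma-voom), with 9 counts over the KO group and 59 over the GFP vector group, 6.48-fold (95% counting interval 3.19 to 14.9; 4.83-fold without GFP vector F). Cd74, the invariant chain, had 10 counts over the KO group and 64 over the GFP vector group, 6.33-fold (95% counting interval 3.23 to 13.8; edgeR adjusted p = 0.0516). Ciita, the activator of class II transcription, went the other way without overlap, at 4.73, 6.00 and 4.77 CPM against 2.85, 1.85 and 4.67 CPM (edgeR adjusted p = 0.246), and H2-DMa overlapped between the groups.

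Microglial genes rose in part. Of 24 tested homeostatic microglia genes 2 were called higher (8.33%, beside 0.864% of all genes), and 12 higher (all genes 16.5%) and 1 lower (4.17%, beside 13.1%) had no overlap, with a median of 0.42 (0.22 without GFP vector F). C1qc, a chain of the complement initiator C1q at chr4:136889804-136893065, was at 32.8, 31.6 and 31.2 CPM in the KO libraries and 55.9, 65.6 and 85.1 CPM in the GFP vector libraries. It rose by 1.09 ± 0.15 (edgeR adjusted p = 0.0252; 0.04999 with the block; 0.0514 with length and GC offsets). Ctss, a lysosomal protease, rose from 41.3, 44.2 and 36.7 CPM to 56.2, 68.4 and 78.5 CPM (log2 0.71 ± 0.14, edgeR adjusted p = 0.0434; 0.0637 with the block). Of the 24, 20 had a positive log2 change and 4 a negative one, and the receptors used to mark resting microglia were not among the calls. Cx3cr1, the fractalkine receptor, was at 35.0 to 38.9 CPM in the KO libraries and 36.8 to 40.4 CPM with the vector. P2ry12, the purinergic receptor, was at 28.4, 23.9 and 27.1 CPM against 16.9, 20.7 and 14.8 CPM, lower in every GFP vector library (log2 -0.62 ± 0.15, edgeR adjusted p = 0.0656; 0.0475 without GFP vector F).

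Among activated microglia genes all 16 tested members of 23 had a positive log2 change on each scaling, with a median of 0.74 (0.49 without GFP vector F). Here too the filter favours a positive sign among low genes, and the untested members are not counted. Of the 16, 3 were called higher (18.8%, beside 0.864% of all genes). Lyz2, lysozyme of myeloid cells, rose from 2.04, 2.57 and 1.73 CPM to 5.57, 8.08 and 8.40 CPM (log2 1.78 ± 0.27, edgeR adjusted p = 0.0292; 0.0588 with the block). Cd68, a lysosomal membrane protein of phagocytes, rose from 4.73, 4.92 and 5.28 CPM to 8.91, 11.98 and 11.5 CPM (log2 1.10 ± 0.19, edgeR adjusted p = 0.0375; 0.0659 with the block). Spp1, osteopontin, rose from 0.322, 0.857 and 0.813 CPM to 3.84, 2.14 and 5.25 CPM (log2 2.45 ± 0.48, edgeR adjusted p = 0.0447; 0.0714 with the block; 0.0635 with limma-voom). For these 3 genes the GFP vector libraries did not overlap with KO, and F was not set as far apart as in the interferon list. Itgax, of the same list, had too few reads to be tested. Complement genes had 1 call of 11 tested (9.09% higher, beside 0.864% of all genes), C1qc. C4b, the classical pathway component also made by astrocytes, was at 36.4, 37.2 and 29.7 CPM against 58.7, 140 and 239 CPM. The groups were apart but the GFP vector libraries spread widely (log2 2.07 ± 0.54, edgeR adjusted p = 0.122).

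Some immunoglobulin transcripts were nearly absent from the KO libraries and seen in the GFP vector libraries. They were also seen in mice given the AAV9 vector carrying Fst, as given below, so they are not particular to the GFP vector. Of 16 listed B and plasma cell genes 6 were tested and 1, Igha, was called higher (16.7%, beside 0.864% of all genes). Igha passed the filter only through the GFP vector libraries, so this share is no support by itself. Igha, the heavy chain of IgA, had 0 counts in each KO library and 36, 18 and 19 counts in GFP vector M1, M2 and F, at least 24.0-fold higher against a floor of 3 counts over the group (edgeR adjusted p = 0.0375; 0.0605 with the block). Ighg2c, an IgG heavy chain, had 0 counts in each KO library and 188, 5 and 25 with the vector, at least 71.8-fold higher by the same floor and at least 13.7-fold without GFP vector M1. Igkc, the kappa light chain, had 0, 5 and 0 counts against 200, 19 and 12, 45.7-fold (95% counting interval 19.3 to 142), and 8.51-fold (3.28 to 28.0) without GFP vector M1. GFP vector M1, which had the lowest reactive astrocyte sum of the 3 GFP vector libraries, held the most reads of each of these 3 genes. These counts are small and the intervals cover counting error only. Constant regions are related in sequence, so the split between classes is uncertain. Of the T and NK cell markers 3 of 24 were tested and none was called by edgeR, DESeq2 or limma-voom (0 at an unadjusted p under 0.05). Cd3e, which defines T cells, had no counts in any of the 6, and markers of perivascular macrophages and monocytes summed to 3.22 to 3.53 CPM in the KO libraries and 4.97 to 9.06 CPM with the vector, with 0 of 12 tested.

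Sensors and cytokines moved less. Of 23 tested genes of nucleic acid sensing and NF-kB signalling 1 was called higher (4.35%, beside 0.864% of all genes). This was Unc93b1, the chaperone that carries endosomal Toll-like receptors to their compartment. It rose from 10.96, 10.9 and 8.43 CPM to 17.7, 18.9 and 17.4 CPM (log2 0.81 ± 0.15, edgeR adjusted p = 0.0430; 0.0779 with the block), with the 3 GFP vector libraries at nearly the same level. Tlr9, the receptor for unmethylated CpG DNA, was at 0.430 to 1.117 CPM against 1.36 to 2.58 CPM (edgeR adjusted p = 0.164). Of 23 tested cytokines, chemokines and receptors none was called by edgeR or limma-voom and 1 by DESeq2, with 5 at an unadjusted p under 0.05 and a median log2 change of 0.09.

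**Figure D1:**
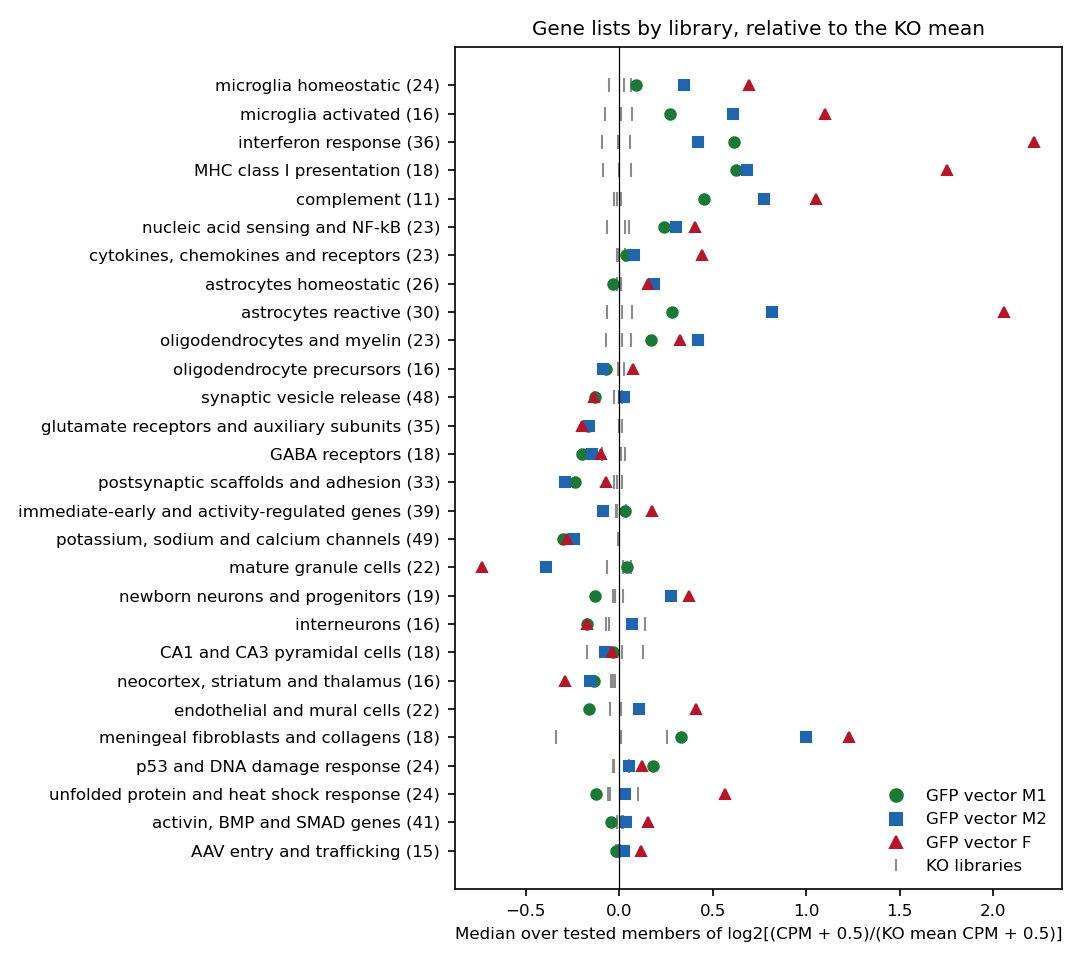
Median log2 level of each gene list in each library relative to the KO mean (x axis, log2 of CPM plus 0.5), for lists with at least 10 tested members (number in parentheses). Coloured symbols are the 3 GFP vector libraries and grey ticks the 3 KO libraries. The interferon list lies at 0.61, 0.42 and 2.22 in GFP vector M1, M2 and F, and the channel list lies at -0.30 to -0.24 in all 3.

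Few glial genes passed the test, 1 each in the reactive astrocyte, myelin and oligodendrocyte precursor lists, and reactive astrocyte genes spread widely among the GFP vector libraries. Over the glial lists 95 of 105 genes were tested, 2 were called higher (2.11%, beside 0.864% of all genes) and 1 lower (1.05%, beside 1.0%, so at the background), 33 higher (34.7%, beside 16.5%) and 3 lower (3.16%, beside 13.1%) had no overlap, and the median was 0.30 (0.17 without GFP vector F). With length and GC offsets 0 were called (edgeR; 33 had an unadjusted p under 0.05 without the offsets), and without GFP vector M1 24 were (all genes 12.6%). Of 30 tested reactive astrocyte genes 29 had a positive log2 change, with a median of 1.53, and 0.57 without GFP vector F. H2-D1, which also stands in the class I list, was the only member called by edgeR, while DESeq2 called 10. The list summed to 786 to 846 CPM in the KO libraries and to 1076, 2275 and 6935 CPM in GFP vector M1, M2 and F.

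Gfap, the astrocyte intermediate filament, was at 396, 464 and 409 CPM in KO M1, F1 and M2 and at 566, 1555 and 4864 CPM in GFP vector M1, M2 and F. All 3 lay above the KO range, at 1.34, 3.68 and 11.5 times the KO mean, yet their spread left the difference short of the threshold (log2 2.44 ± 0.84, edgeR adjusted p = 0.197; 0.268 without GFP vector F). Vim, vimentin, was at 21.8, 18.7 and 22.6 CPM against 25.7, 69.5 and 358 CPM. Serpina3n, a secreted protease inhibitor, was at 40.6, 41.1 and 44.5 CPM against 54.9, 128 and 575 CPM. Both repeated the order M1, M2, F of Gfap with no overlap between the groups, and neither passed the test (edgeR adjusted p = 0.247 and 0.241). Hspb1, a small heat shock protein, was at 3.15 to 6.53 CPM in the KO libraries and at 4.21, 5.65 and 146 CPM. Its higher level was thus seen in GFP vector F alone, at 29.0 times the KO mean.

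Homeostatic astrocyte genes lay closer to the KO level. Of 26 tested none was called by edgeR, DESeq2 or limma-voom, 5 had an unadjusted p under 0.05, and the median was 0.11 (0.05 with length and GC offsets). Aldh1l1, the pan-astrocyte folate enzyme, was at 28.3 to 30.8 CPM in the KO libraries and 31.7, 33.8 and 57.2 CPM with the vector. Slc1a2, the main glutamate transporter, was at 2427 to 2486 CPM against 1791, 2211 and 2242 CPM, lower in all 3 (edgeR adjusted p = 0.209).

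Of 23 tested oligodendrocyte and myelin genes 19 were positive, with a median of 0.30 both with and without GFP vector F. For 11 higher there was no overlap (47.8%, beside 16.5% of all genes), and 1 was called higher (4.35%, beside 0.864%). Cnp, a myelin enzyme, rose from 56.9, 60.1 and 60.3 CPM to 79.6, 90.6 and 77.7 CPM (log2 0.46 ± 0.09, edgeR adjusted p = 0.0434; 0.0779 with the block; 0.114 with length and GC offsets). Mbp, myelin basic protein, was at 483, 533 and 475 CPM against 610, 670 and 578 CPM (edgeR adjusted p = 0.125). In both genes GFP vector F was the lowest of the GFP vector libraries, unlike in the astrocyte genes. Of 16 tested oligodendrocyte precursor genes 1 was called lower (6.25%, beside 1.0% of all genes), Tnr, the extracellular matrix protein tenascin-R. It fell from 348, 378 and 347 CPM to 243, 228 and 256 CPM (log2 -0.59 ± 0.09, edgeR adjusted p = 0.0290; 0.0605 with the block; 0.0711 with length and GC offsets; 0.0854 with 12 libraries in the fit).

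**Figure D2:**
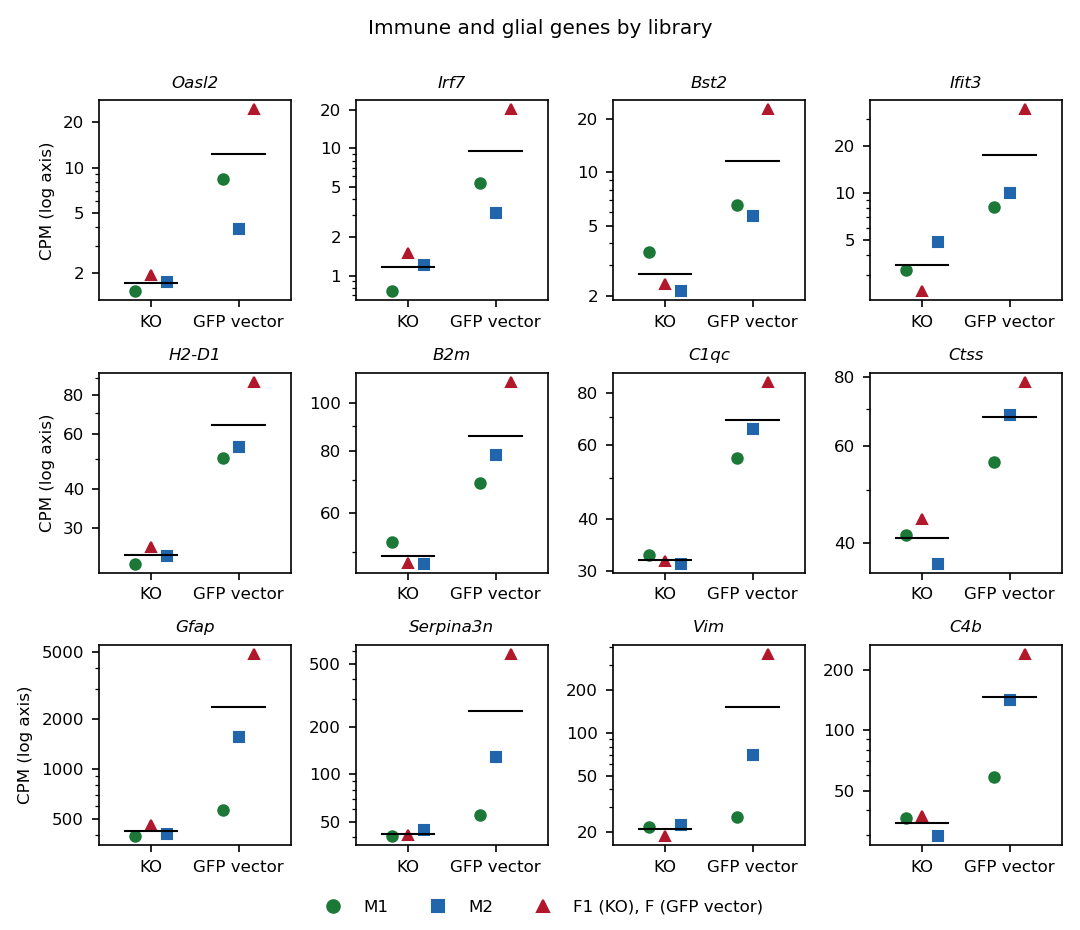
CPM (log axis) of 12 immune and glial genes in each library, with symbols for the replicate names and a bar at the mean of each group of 3. The groups do not overlap for any of the 12, H2-D1, C1qc and Ctss passed the edgeR test, and GFP vector F is the highest library in each panel.

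Meningeal and blood transcripts had higher summed levels in the GFP vector libraries, though none passed the edgeR test. Of 18 tested meningeal fibroblast and collagen genes 15 were positive, with a median of 1.36 (0.94 without GFP vector F). For 8 higher there was no overlap (44.4%, beside 16.5% of all genes). None was called by edgeR (8 at an unadjusted p under 0.05, 4 called by DESeq2 and 1 by limma-voom). The list summed to 148, 216 and 273 CPM in the KO libraries and 344, 778 and 656 CPM in the GFP vector libraries, and no member was at 0 in all 6. Slc13a4, a sulphate transporter of the meninges, was at 1.61, 0.857 and 1.83 CPM against 4.08, 4.67 and 4.01 CPM (edgeR adjusted p = 0.0501). Ptgds, a prostaglandin synthase of the same tissue, was at 48.1, 54.8 and 123 CPM against 205, 229 and 146 CPM. Blood transcripts summed to 32.8 to 39.5 CPM against 43.3 to 60.4 CPM. The part of these cells in the immune and glial differences was not tested.

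Synaptic genes ran the other way. Over the synaptic lists 219 of 220 genes were tested, 14 were called lower (6.39%, beside 1.0% of all genes) and 1 higher (0.457%, beside 0.864%). Without overlap, 69 were lower (31.5%, beside 13.1%) and 20 higher (9.13%, beside 16.5%), and the median log2 change was -0.14 (-0.16 without GFP vector F; -0.11 with length and GC offsets). With the block 4 members were called lower (all genes 0.0871%), and with the offsets 7 (all genes 0.301%). Without GFP vector M1 or F 65 and 39 were called in either direction (all genes 12.6% and 6.29%).

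The postsynaptic scaffolds held 6 of the calls among 33 tested genes, all lower (18.2%, beside 1.0% of all genes). Shank3, a master scaffold of excitatory synapses at chr15:89499623-89560261, was at 344, 348 and 317 CPM in KO M1, F1 and M2 and at 143, 132 and 138 CPM in GFP vector M1, M2 and F. It fell by 1.31 ± 0.09 on the log2 scale, with all 3 GFP vector libraries, F included, at 0.391 to 0.425 times the KO mean (edgeR adjusted p = 0.00103; 0.00888 with the block; 0.000772 with length and GC offsets). Leaving out any 1 library kept its adjusted p at or below 0.0443. An antisense gene overlaps Shank3, and without a stated strand their reads cannot be told apart. Shank1, its paralog at chr7:44310253-44360572, was at 544, 646 and 509 CPM against 277, 250 and 270 CPM (log2 -1.12 ± 0.11, edgeR adjusted p = 0.0137; 0.0395 with the block; 0.00418 with the offsets). Shank2, the other paralog, was at 323, 340 and 310 CPM against 222, 236 and 282 CPM and did not pass (log2 -0.42, edgeR adjusted p = 0.0756; 0.00606 without GFP vector F). The 3 paralogs thus lay lower in every GFP vector library, Shank2 by less in F.

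Homer2, which links glutamate receptors to calcium stores, fell from 42.6, 36.3 and 36.2 CPM to 24.8, 21.4 and 16.2 CPM (log2 -0.91 ± 0.16, edgeR adjusted p = 0.0377; 0.0555 with the block; 0.104 with the offsets). Dlgap3, which joins Shank proteins to the receptor scaffold, fell from 331, 412 and 327 CPM to 262, 198 and 225 CPM (log2 -0.67 ± 0.14, edgeR adjusted p = 0.0484; 0.0717 with the block; 0.0524 without GFP vector F). Dlg4, which encodes the scaffold PSD-95, overlapped between the groups, at 938, 1004 and 878 CPM against 966, 889 and 935 CPM. Camk2a, the kinase of synaptic plasticity, was at 6109, 6450 and 5557 CPM against 4462, 3398 and 2911 CPM, lower in all 3 (edgeR adjusted p = 0.0506).

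Among 48 tested genes of synaptic vesicle release 1 fell and 1 rose (2.08% each, beside 1.0% and 0.864% of all genes), so the list's calls were near the background. Bsn, the active zone scaffold bassoon at chr9:108096022-108190384, was at 649, 710 and 655 CPM against 382, 427 and 415 CPM (log2 -0.74 ± 0.09, edgeR adjusted p = 0.0165; 0.04999 with the block; 0.0232 with the offsets). Syt5, a calcium sensor of vesicles, rose from 142, 148 and 146 CPM to 188, 215 and 243 CPM (log2 0.54 ± 0.10, edgeR adjusted p = 0.0434; 0.0714 with the block; 0.114 with the offsets). Snap25, of the fusion complex, was at 1046 to 1165 CPM in the KO libraries and 992 to 1074 CPM with the vector, and Syp, synaptophysin, at 652 to 713 CPM against 645 to 690 CPM. Both overlapped between the groups.

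Receptors were lower by small amounts. None of 35 tested glutamate receptor genes and none of 18 GABA receptor genes was called by edgeR or limma-voom; 14 and 6 had an unadjusted p under 0.05, and DESeq2 called 1 and 0. Their medians were -0.15 and -0.21, with 26 and 17 negative. Gria2, the AMPA receptor subunit that blocks calcium, was at 1431, 1241 and 1414 CPM against 1088, 955 and 791 CPM. Its groups did not overlap (log2 -0.55 ± 0.13, edgeR adjusted p = 0.0662; -0.20 and 0.447 with the offsets). Gabra2, a GABA-A receptor subunit, was at 165, 171 and 163 CPM against 118, 150 and 129 CPM (log2 -0.35 ± 0.10, edgeR adjusted p = 0.0898; -0.15 and 0.429 with the offsets). With the offsets the GABA receptor median was -0.12, with 4 of 18 positive in place of 1.

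Of 49 tested potassium, sodium and calcium channel genes 6 were called, all lower (12.2%, beside 1.0% of all genes), and 24 lower (49.0%, beside 13.1%) and 5 higher (10.2%, beside 16.5%) had no overlap, with a median of -0.31 (-0.18 with the offsets). Kcnq5, a subunit of the M-current that restrains repetitive firing, at chr1:21398403-21961942, was at 19.4, 25.4 and 32.5 CPM against 8.17, 8.86 and 6.39 CPM. It fell to 0.248 to 0.344 times the KO mean (log2 -1.75 ± 0.21, edgeR adjusted p = 0.0165; 0.0469 with the block; 0.0289 with the offsets). In untreated wild type M1, F1 and M2 it was at 22.5, 18.6 and 8.12 CPM, so wild type M2 lay within the GFP vector range. In mice given the AAV9 vector carrying Fst, against untreated wild type, its log2 change was -0.46 (edgeR adjusted p = 0.452). Kcnq3, its partner in the M-channel, fell from 285, 264 and 265 CPM to 200, 151 and 142 CPM (log2 -0.74 ± 0.13, edgeR adjusted p = 0.0375; 0.0555 with the block; 0.157 with the offsets). Kcna1, a potassium channel of axons, fell from 106, 112 and 113 CPM to 70.8, 74.7 and 72.2 CPM (log2 -0.63 ± 0.08, edgeR adjusted p = 0.0165; 0.0536 with the block; 0.0206 with the offsets; 0.155 with 12 libraries in the fit). Scn8a, a sodium channel of the axon initial segment, fell from 480, 478 and 471 CPM to 364, 340 and 357 CPM (log2 -0.45 ± 0.08, edgeR adjusted p = 0.0379; 0.0767 with the block; 0.107 with the offsets). The calcium channel genes Cacna1c and Cacna1e fell by 0.56 each (edgeR adjusted p = 0.0439 and 0.0389; 0.0861 and 0.0735 with the block), with no overlap.

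**Figure D3:**
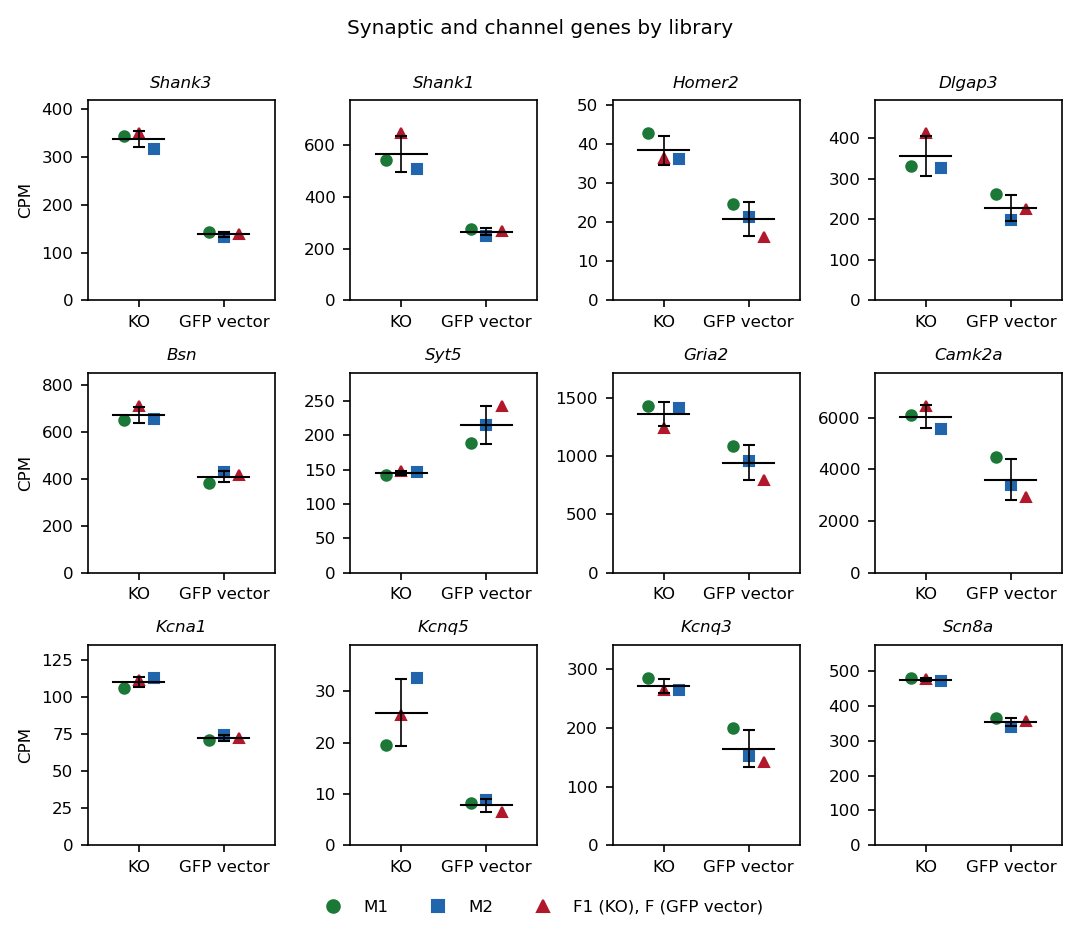
CPM of 12 synaptic and channel genes in each library (linear axis from 0), with the mean and SD of each group of 3. Shank3 lies at 317 to 348 CPM in the KO libraries and 132 to 143 CPM in the GFP vector libraries, and Syt5 is the only gene shown that rose.

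Transcript length differed between the genes that rose and those that fell. In quintiles of the tested genes by exonic length, from shortest to longest, 69, 34, 16, 7 and 3 genes were called higher and 8, 6, 19, 21 and 96 lower, and the median log2 change ran from 0.12 to -0.13. This held in each GFP vector library, at 0.08 to 0.15 in the shortest quintile and -0.15 to -0.08 in the longest. By GC content, from lowest to highest, 6, 7, 18, 34 and 64 were higher and 45, 34, 34, 11 and 26 lower. The median exonic length was 4376 bases over all tested genes, 9125 in the postsynaptic list, 8963 in the channel list and 3445 in the immune lists. With a trend on length and GC content fitted in each library, 68 genes were called (0.456%), 23 higher (0.154%) and 45 lower (0.301%), of which 61 were among the 279. Of the immune calls, Lyz2 alone passed with these offsets.

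**Figure D4:**
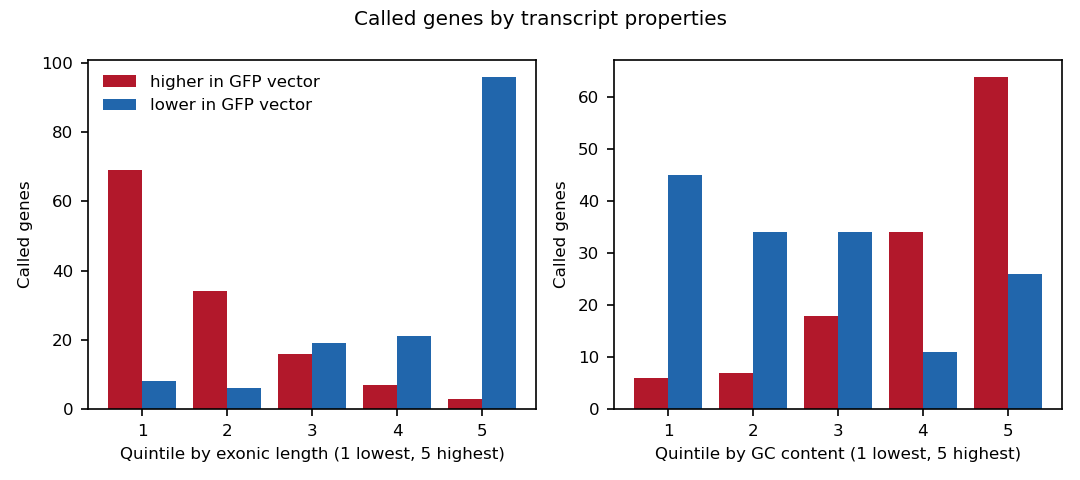
Number of genes called higher (red) and lower (blue) in the GFP vector libraries in each quintile of the tested genes by exonic length (left) and GC content (right). Of the 150 genes called lower, 96 are in the longest quintile, and of the 129 called higher, 69 are in the shortest.

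Activity-regulated genes split. Of 39 tested 20 were positive and 19 negative, with a median log2 change of 0.004. The groups did not overlap for 8 higher (20.5%, beside 16.5% of all genes) and 4 lower (10.3%, beside 13.1%). Of the 39, 0 were called higher and 1 lower (2.56%, beside 1.0% of all genes), so the list's calls were near the background. This was Nr4a3, an activity-induced nuclear receptor, which fell from 37.1, 40.4 and 59.4 CPM to 23.3, 23.9 and 17.1 CPM (log2 -1.12 ± 0.21, edgeR adjusted p = 0.0447; 0.0536 with the block; 0.0709 with the offsets; 0.0504 with limma-voom). In mice given the AAV9 vector carrying Fst, against untreated wild type, the log2 change of Nr4a3 was 0.17 (edgeR adjusted p = 0.518). Fos, the classical immediate-early gene, was at 3.10 to 7.62 CPM against 1.85 to 5.82 CPM, with overlap. Penk, which encodes enkephalin, was at 15.5, 20.7 and 14.0 CPM against 22.4, 252 and 479 CPM. Bdnf, the neurotrophin, was at 66.8, 54.6 and 72.7 CPM against 73.4, 125 and 208 CPM. Neither passed the test (edgeR adjusted p = 0.177 and 0.206), and GFP vector M1 lay just above the KO range in both while F was highest, as for Gfap.

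Granule cell genes were lower in some GFP vector libraries. Of 22 tested mature granule cell genes 18 were negative and 1 was called lower (4.55%, beside 1.0% of all genes). The median member stood at a log2 of 0.04, -0.39 and -0.73 relative to the KO mean in GFP vector M1, M2 and F. Rfx3, a transcription factor, fell from 331, 339 and 331 CPM to 262, 222 and 189 CPM (log2 -0.60 ± 0.12, edgeR adjusted p = 0.0456; 0.0741 with the block; 0.235 with the offsets). Calb1, the calcium buffer calbindin, was at 204 to 219 CPM against 234, 135 and 67.8 CPM, so GFP vector M1 stood above the KO libraries and F far below. Stmn1, a microtubule regulator of young neurons, rose from 99.9, 93.0 and 88.5 CPM to 142, 169 and 122 CPM (log2 0.60 ± 0.12, edgeR adjusted p = 0.0466; 0.0779 with the block; 0.101 with the offsets; 0.0507 with limma-voom and with 12 libraries in the fit). It was the only edgeR call among 19 newborn neuron and progenitor genes (5.26% higher, beside 0.864% of all genes). There limma-voom called 0 and DESeq2 2. In the pathway that follistatin restrains, Acvr2a, a type II activin receptor, was the only 1 of 41 activin, BMP and SMAD genes called (2.44% lower, beside 1.0% of all genes, so near the background). It fell from 96.4, 93.3 and 95.7 CPM to 72.5, 51.4 and 59.4 CPM (log2 -0.66 ± 0.12, edgeR adjusted p = 0.0434; 0.0659 with the block; 0.141 with the offsets).

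The largest fitted change among the 279 genes was in a processed pseudogene. Gm8730 (chr8:102864845-102865798) had 0, 0 and 1 counts in the KO libraries and 123, 122 and 100 in GFP vector M1, M2 and F, 341-fold (95% counting interval 60.8 to 13500; edgeR adjusted p = 0.00103; 0.0945 with 12 libraries in the fit). The Fst vector libraries had 0, 207 and 62 counts of it, so 1 vector library held none. Its transcript is 98.7% identical over 954 bases to Rplp0, a ribosomal protein gene, and the counting may not separate the reads of the 2. The long noncoding RNA Gm42743, which overlaps a histone gene, had 1 count over the KO group and 118 over the GFP vector group, 117-fold (95% counting interval 20.5 to 4640), and 73.0-fold (12.5 to 2940) without GFP vector F. Of 309 tested genes of the TEC class, annotated loci that await experimental proof, 0 were called higher and 13 lower by edgeR (all genes 0.864% and 1.0%), with a median of -0.34. Gm44070, of this class, fell from 5.26, 5.46 and 5.59 CPM to 0.866, 0.487 and 1.05 CPM (log2 -2.77 ± 0.32, edgeR adjusted p = 0.0165). Some TEC genes that fell lie inside other genes, as Gm38020 inside Ftx and Gm45793 inside Me3, and reads there cannot be assigned with certainty.

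Genes outside the lists were among those with the smallest p. Hebp1, a haem-binding protein, rose from 24.9, 23.8 and 24.9 CPM to 62.4, 54.2 and 49.99 CPM (log2 1.15 ± 0.11, edgeR adjusted p = 0.0137; 0.0401 with the block; 0.0129 with the offsets). Ppp1r1a, an inhibitor of protein phosphatase 1, rose from 153, 150 and 146 CPM to 246, 266 and 275 CPM (log2 0.79 ± 0.08, edgeR adjusted p = 0.0137). Fau, which encodes a ribosomal protein, rose from 143, 147 and 143 CPM to 254, 238 and 223 CPM (log2 0.70 ± 0.08, edgeR adjusted p = 0.0165; 0.0536 with the block). In all 3 the libraries of each group lay close together. Mllt6, a chromatin-associated protein, fell from 330, 396 and 337 CPM to 183, 196 and 175 CPM (log2 -0.96 ± 0.10, edgeR adjusted p = 0.0137; 0.0475 with the block; 0.00789 with the offsets).

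The same genes were read in mice given the AAV9 vector carrying Fst, compared with untreated wild type. That pair shares no library with the one above, also differs by vector and by table, and its vector group is labelled overexpressing with no genotype stated. There 1995 of 15047 genes were called (13.3%). Of the 279 genes 180 were called in both pairs (64.5% of the GFP vector calls, 9.02% of the Fst vector calls), 178 in the same direction, and 268 of the 274 tested there had the same sign. Shank3 fell by 1.25 in that pair and Shank1 by 1.23 (edgeR adjusted p = 0.00016 and 0.000266). Igha had 0 counts in each wild type library and 61, 34 and 31 in Fst vector M1, M2 and F. Ighg2c had 0 counts in each wild type library and 223, 7 and 268 in the same 3 Fst vector libraries. Igkc had 1, 1 and 0 counts in wild type M1, F1 and M2 and 1017, 68 and 322 in Fst vector M1, M2 and F. The median log2 change of the postsynaptic list was -0.34 there and -0.17 here, and in that pair the longest and shortest quintiles of genes by exonic length stood at -0.18 and 0.21.

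The interferon list had a median of 0.23 in the Fst vector pair beside 1.46 in the GFP vector pair, and reactive astrocyte genes 0.75 beside 1.53. Without GFP vector F, the medians of the GFP vector pair were 0.66 and 0.57. The reactive astrocyte median then lay below the 0.75 of the Fst vector pair. In the Fst vector pair Oasl2 had a log2 change of -0.12, and Serpina3n fell by 0.70 (edgeR adjusted p = 0.0135). The difference of the pairs' effects, tested over all 12 libraries, was called for 17 of 15632 genes (0.109%), 0 of them in the immune or glial lists. For Oasl2 and Serpina3n that test gave an edgeR adjusted p of 0.329 and 0.407. Without libraries of both kinds in 1 table, the vector effect and the table effect cannot be told apart in either pair.

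**Figure D5:**
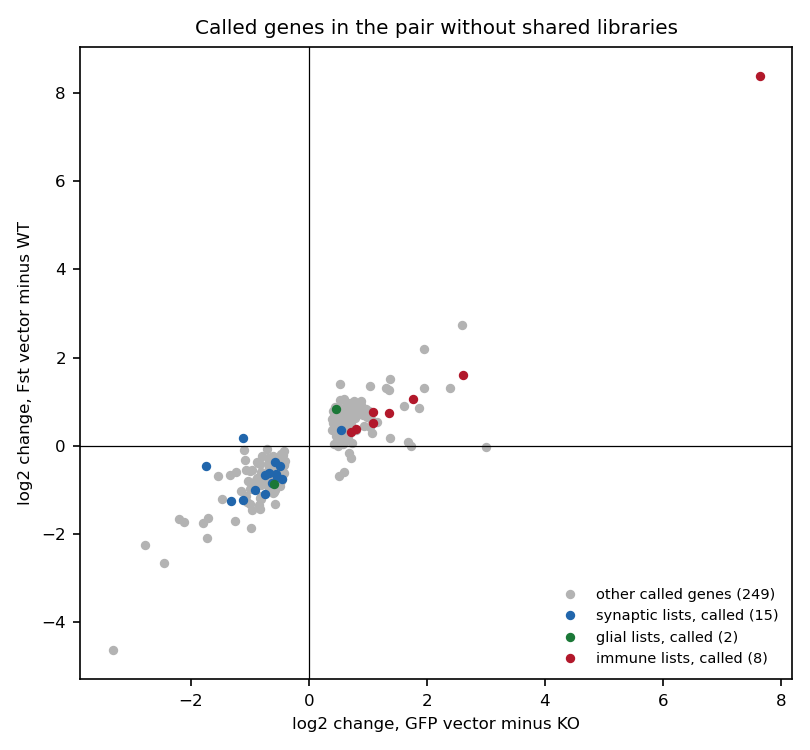
Log2 change in the GFP vector pair (x axis) and in the Fst vector pair (y axis) for the 274 of 279 called genes tested in both, coloured by list. Of these, 268 lie in the quadrants of equal sign.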

How the data were processed

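Gene counts of bulk dentate gyrus RNA came from 2 count tables that the authors deposited, both holding whole-number counts per gene for 52636 Ensembl gene IDs. The build is GRCm38, per the submitters' processing notes. No label or file header names the aligner, the counter or the strand setting. Lines that name no gene (12 and 6) were left out. Symbols and coordinates of 52489 IDs came from GENCODE M21.

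The 6 libraries were fitted with edgeR 4.0.16 (R 4.3.3; TMM scaling, filterByExpr, robust quasi-likelihood test, Benjamini-Hochberg adjusted p under 0.05). Standard errors are the log2 change divided by the root of its F. CPM are counts scaled to library totals. The smallest library, at 8081824 counts, sets the precision for low genes. Counting intervals are exact at 95% and cover counting error only. DESeq2 1.42.0, limma 3.58.1 with voom, other scalings, filters, covariates and leaving out each library were alternatives. Length and GC offsets (splines with 4 degrees of freedom, fitted per library), leaving out both M2 libraries, and count ratios without the highest GFP vector library were chosen after seeing the data. The fit was tested on simulated counts. Copies were compared with blastn 2.17.0.

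Same-named libraries deviated together from their group means over 10546 genes (r = 0.196 for M1, 0.443 for M2 and 0.253 for F; -0.324 to -0.0622 for other pairs). The pairing comes from the data, since the labels tie no number to a litter or day, and it coincides with sex and with the mitochondrial ribosomal RNA of the M2 libraries.

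Genes named were Fst, those with the smallest p and the largest changes in each direction, and up to 4 called members per list and direction (the 2 with the smallest p where none was called). Other list members were named after their values were seen. The members and lists were chosen with earlier results of these data known. Results for some list members are not reported here.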

Additional observations from a re-analysis of the deposited data

Results flagged for a closer look

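Among the 279 genes called in the GFP vector pair, 2 had an effect that differed from the effect in the Fst vector pair by the test of the difference over 12 libraries. Both were chosen after their values were seen. Hs6st1, a heparan sulphate sulphotransferase, was at 49.7, 46.3 and 48.4 CPM in KO M1, F1 and M2 and at 68.1, 66.1 and 75.0 CPM in GFP vector M1, M2 and F. It rose there by 0.51 on the log2 scale (edgeR adjusted p = 0.0375) and had a log2 change of -0.68 in the Fst vector pair, a difference of 1.199 (edgeR adjusted p = 0.00982). Spsb1, an adaptor of a ubiquitin ligase, was at 49.7, 40.1 and 42.1 CPM against 71.6, 69.6 and 61.2 CPM. It rose by 0.60 (edgeR adjusted p = 0.0430), with -0.60 in the Fst vector pair and a difference of 1.201 (edgeR adjusted p = 0.0463).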

How the results depend on the processing

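Counts of calls depended on the fit. In the order all genes, immune, glial and synaptic lists (279, 9, 3 and 15 as reported), they were 940, 42, 18 and 41 with DESeq2, 1336, 52, 17 and 57 with no filter on low counts, 420, 24, 6 and 22 with sex as a term, 559, 37, 9 and 21 with 12 libraries in the fit, and 11, 0, 0 and 3 against a minimum change of 1.2 fold. With the replicate block they were 33, 4, 2 and 4, with length and GC offsets 68, 1, 0 and 7, and with both 10, 0, 0 and 3. Library totals gave 363, 13, 5 and 17. Leaving out 1 library gave 2 to 1937 over all genes, 0 to 59 immune, 0 to 24 glial and 1 to 65 synaptic calls, the highest without GFP vector M1. Leaving out both M2 libraries gave 0 of each by edgeR, with 1510 genes at an unadjusted p under 0.05; the cause was not tested.

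Of 47 named genes that passed, the block kept 20, the offsets 25, both 7, limma-voom 43 and the fit of 12 libraries 39, which lost Gm8730. Kdm5d, Y-linked, moved from -0.20 to 0.35 with limma-voom, 0.043 with the offsets, 0.085 with offsets and block, and -0.78 to 0.39 over left-out libraries. Uty, also Y-linked, moved from -0.48 to between -1.06 and 0.12 over left-out libraries. In KO F1 and GFP vector F, Kdm5d was at 0 and 0.191 CPM and Uty at 0 CPM in both. Leaving out a library therefore changes the share of males behind the means of these 2 genes. Thy1 (0.06) was at -0.080 with the offsets and -0.081 with offsets and block. The cause was not tested. Genes under about 0.371 CPM, or 3 counts, were not resolved at this depth.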
